A study of Arabidopsis thaliana with 5 samples.

Results

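Genes that encode proteins acting on R-loops were examined for R-loops of their own. R-loops form where RNA anneals to its DNA template and leaves the other DNA strand unpaired. The group was set by a list of 8 loci, out of 27444 nuclear protein-coding genes in the gene table used. It holds the topoisomerase I genes TOP1ALPHA (AT5G55300) and TOP1BETA (AT5G55310), the RNase H1 genes AT3G01410, AT5G51080 and AT1G24090, the homeobox gene NDX (AT4G03090) and the ALBA genes AT1G29250 and AT2G34160. All of the samples came from nuclei of wild-type Arabidopsis thaliana seedlings of the Columbia ecotype, 12 days old, with no further treatment of the plants named. R-loops were mapped by DRIP, in which genomic DNA cut with restriction enzymes is precipitated with S9.6, an antibody against DNA:RNA hybrids. The series comprises 2 DRIP replicates, 2 DRIP samples digested with RNase H as the negative control and 1 input. Peak lists of the DRIP replicates were analysed, and the RNase H and input samples were not analysed here, so no peak below was compared with its level after RNase H. Nothing says that the replicates came from separate plants, so their spread may be technical.

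These proteins meet R-loops in different ways. Topoisomerase I relaxes the supercoils that build up around a moving RNA polymerase, and negative supercoiling behind the polymerase favours pairing of the nascent RNA with its template. RNase H1 cuts the RNA strand of a hybrid and so removes the R-loop. NDX is known in Arabidopsis for binding single-stranded DNA in an R-loop at the promoter of the antisense transcripts of the floral repressor gene FLC, and ALBA proteins are small nucleic acid binding proteins reported to bind R-loops.

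The list of DRIP replicate 1 held 47291 peaks and that of replicate 2 held 39888. Libraries made from single-stranded DNA keep the strand of each read, and the authors also deposited a list of 34493 w peaks and a list of 34069 c peaks, both recorded under replicate 1. The letters w and c are used here only as names of opposite strands. The fold of a peak is the authors' ratio of signal at the peak summit to the local background, and it ranks peaks within a list. Peak lists give no read totals, so depth is unknown and no counting interval can be set. The gene table gives neither exons nor the transcribed strand, so positions are counted in bp from the lower-coordinate end of a gene, whose first base is 1. With 2 values for 1 group, and 1 list for each strand, the design allows no test between groups, and all that follows is description.

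DRIP peaks were found in both replicates in 5 of the 8 genes: TOP1ALPHA, TOP1BETA, the RNase H1 genes AT5G51080 and AT1G24090, and NDX. The other 3, AT3G01410 and both ALBA genes, carried none in either replicate and none in the w or c list. Over all protein-coding genes the share with DRIP peaks in both replicates was 60.6%, that with DRIP peaks in neither was 31.2%, and 20.7% were without a peak in all 4 lists. The count of 5 of 8 is therefore close to the general share. A w peak was present in 3 of the 8 genes, against 54.9% of all protein-coding genes, and a c peak in 4 of the 8, against 54.8%. With only peaks in the upper 50% of their list by fold, 2 of the 8 genes kept a DRIP peak in both replicates, TOP1ALPHA and NDX, against 42.2% of all protein-coding genes.

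**Figure D1:**
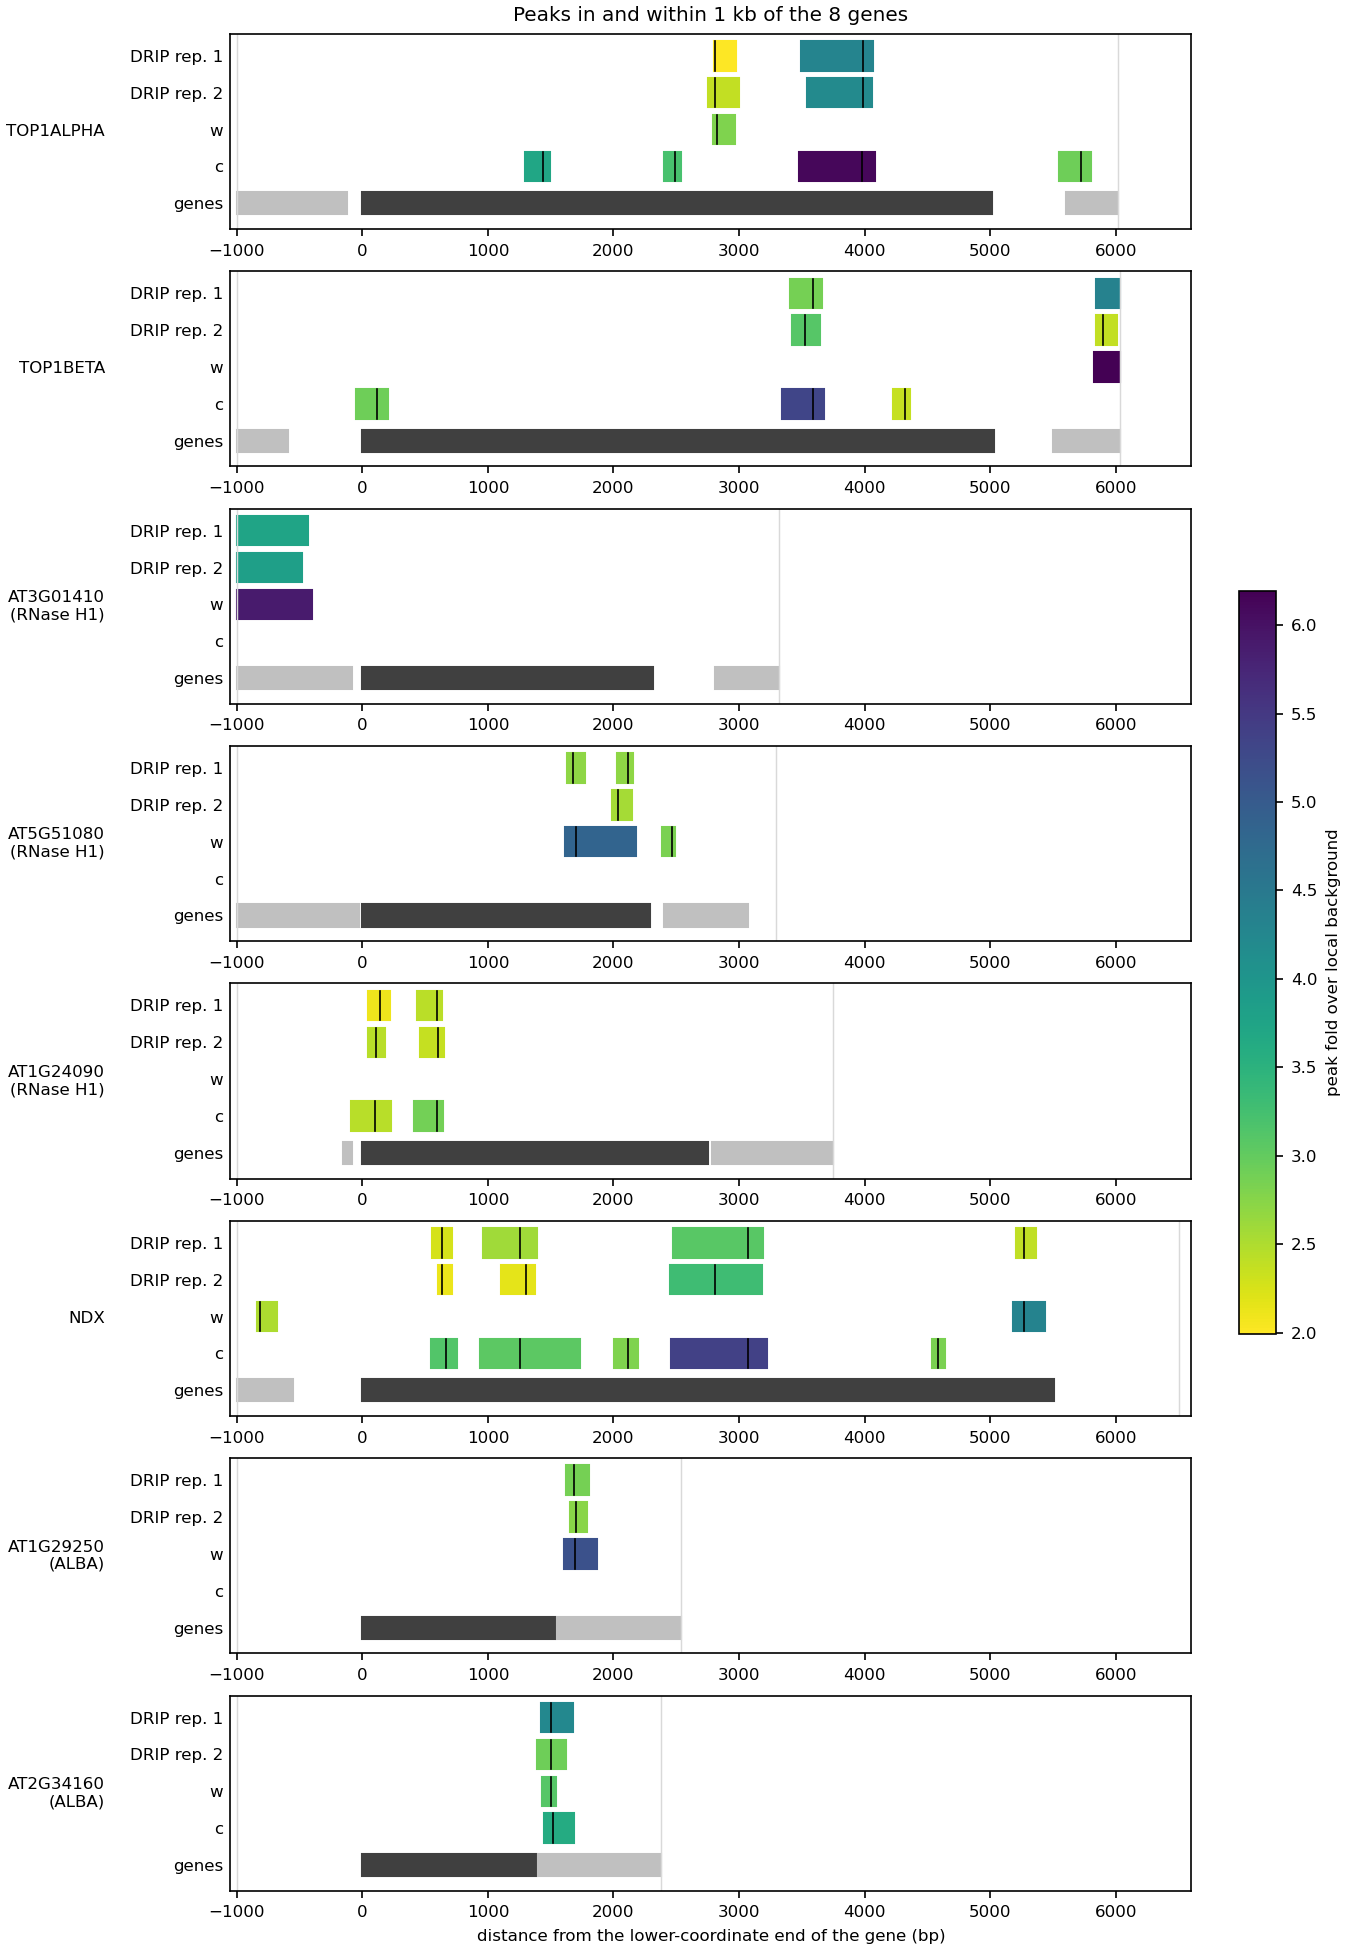
Peaks in and within 1 kb of each of the 8 genes, drawn to scale against distance in bp from the lower-coordinate end of the gene. Bars are peaks of the 4 lists coloured by fold, black ticks are summits, the dark bar is the gene, light bars are the nearest annotated gene on either side, and thin vertical lines mark the end of the 1 kb flanks, where bars are clipped. No bar lies over AT3G01410, AT1G29250 or AT2G34160, while NDX holds 4 peaks of DRIP replicate 1 and 3 of replicate 2.

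TOP1ALPHA had the highest DRIP folds of the 8 genes. It lies 590 bp below TOP1BETA on chromosome 5, and each gene spans about the same length, 5013 bp and 5030 bp. The highest TOP1ALPHA peak had a fold of 4.31 in replicate 1 and 4.21 in replicate 2, a mean of 4.26 ± 0.071 (SD, n = 2). It spanned 22427993 to 22428567 on chromosome 5 in replicate 1, 575 bp wide, and 22428043 to 22428561 in replicate 2, 519 bp wide. Its summits lay at 3984 and 3987 bp of the gene, 3 bp apart. A second, weaker peak had folds of 1.99 in replicate 1 and 2.38 in replicate 2, with summits at 2812 and 2805 bp. The peaks thus stood at the same places in both replicates, at about 56% and 79% of the way along the gene. By its highest fold TOP1ALPHA stood above 70.6% of protein-coding genes with a peak in replicate 1 and above 68.9% in replicate 2.

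The peaks of TOP1ALPHA were split between the strands. The stronger DRIP peak was matched by a c peak with a fold of 6.12, 603 bp wide, and by no w peak. The weaker DRIP peak was matched by a w peak with a fold of 2.80, 179 bp wide, and by no c peak. A pair of further c peaks, with folds of 3.71 and 3.21 and summits at 1436 and 2493 bp, overlapped no DRIP peak of either replicate. In all, c peaks covered 944 bp of the gene and w peaks 179 bp.

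TOP1BETA, the other topoisomerase I gene, held a single weaker DRIP peak. Its fold was 2.87 in replicate 1 and 3.11 in replicate 2, a mean of 2.99 ± 0.17 (SD, n = 2). The peak spanned 22433508 to 22433762 on chromosome 5 in replicate 1, with summits at 3590 and 3524 bp. Both highest DRIP folds of TOP1BETA lay below both of TOP1ALPHA, so the values of the pair did not overlap. This DRIP peak was matched by a c peak with a fold of 5.33 and by no w peak. Another c peak, with a fold of 2.93, crossed the lower end of the gene with 202 of its 256 bp inside, and the last, with its summit at 4319 bp, had a fold of 2.37. Neither of these overlapped a DRIP peak. The topoisomerase I genes encode related proteins, and how the authors treated reads that match more than one place is not given in the sources used here, so signal at the pair is uncertain to that extent.

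The genes on either side of the topoisomerase I pair differed. AT5G55320, 472 bp above TOP1BETA, had DRIP folds of 4.35 and 3.34 and a w peak with a fold of 6.19 and no c peak. Peaks covered 52.8% of its span in replicate 1 and 38.7% in replicate 2. AT5G55290, 121 bp below TOP1ALPHA, had a DRIP peak in replicate 1 only, with a fold of 2.71, and 2 w peaks with a highest fold of 4.86. Both outer neighbours thus carried w peaks and no c peak, and both topoisomerase I genes carried more c than w peaks.

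The RNase H1 genes ranged from no peak to 2 peaks per replicate. AT5G51080 had 2 peaks in replicate 1, both with a fold of 2.71, and 1 peak in replicate 2 with a fold of 2.56. The peaks found in both replicates spanned 20770819 to 20770948 and 20770782 to 20770943 on chromosome 5, with summits at 2113 and 2037 bp. The other replicate 1 peak, at 1675 bp, had no counterpart in replicate 2. One w peak with a fold of 4.86, 566 bp wide, spanned all of them, and there was no c peak. AT5G51080 was thus the only one of the 8 genes with w peaks alone, on the higher-coordinate side of the gene. Its neighbour ERD1, which ends 30 bp below it, carried up to 3 DRIP peaks, with highest folds of 5.16 and 4.03. ERD1 also had 3 c peaks, with a highest fold of 7.19, and a w peak with a fold of 3.39. On the other side the noncoding gene AT5G00640 had a w peak with a fold of 2.85 and no DRIP peak.

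AT1G24090 had the lowest folds of the 5 genes with peaks, on the opposite side of the gene span. One peak began at 46 bp in each replicate, with folds of 2.10 in replicate 1 and 2.44 in replicate 2. The other had summits at 597 and 599 bp and folds of 2.43 and 2.36. The highest fold of AT1G24090 was therefore set by different peaks in the replicates, and its mean was 2.43 ± 0.010 (SD, n = 2), at chromosome 1, 8520875 to 8521077, in replicate 1. Each DRIP peak was matched by a c peak, with folds of 2.45 and 2.88, and there was no w peak. The first c peak held 226 of its 320 bp inside the gene and also overlapped the neighbouring tRNA gene AT1G24080. Only 8.46% of protein-coding genes with a peak in replicate 1 had a lower highest fold, and 7.56% of those with a c peak. The neighbour AT1G24095, 31 bp away, had a higher mean fold of 4.50 ± 0.0074.

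AT3G01410 held no peak, yet a wide peak lay beside it. The nearest DRIP peak was 432 bp away in replicate 1 and 484 bp away in replicate 2, and lay in the neighbouring gene AT3G01400. Peaks covered 77.1% of AT3G01400 in replicate 1 and 73.7% in replicate 2, with folds of 3.75 and 3.84, a w fold of 5.89 and a c fold of 4.59. AT3G01415 on the other side had no peak in any list. Among genes with lengths from that of AT5G51080 to that of AT1G24090, the range of the 3 RNase H1 genes, 69.2% had DRIP peaks in both replicates. Of these 3 genes 2 did.

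NDX, the longest of the 8 genes with 5505 bp, held the most peaks. Replicate 1 had 4 peaks, with folds of 2.26, 2.60, 3.09 and 2.40 in order of position, and replicate 2 had 3, with folds of 2.12, 2.17 and 3.30. The highest peak spanned 1368529 to 1369239 on chromosome 4 in replicate 1, 711 bp wide, and 1368498 to 1369238 in replicate 2, 741 bp wide. Its mean fold was 3.19 ± 0.15 (SD, n = 2). The borders of this peak agreed closely, and its summits, at 3072 and 2807 bp, were 265 bp apart, more than for any other peak pair in the 8 genes. Peaks covered 26.6% of NDX in replicate 1 and 20.5% in replicate 2, more than 75.0% and 70.3% of all protein-coding genes.

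NDX was covered mainly by c peaks. It had 5 c peaks over 2061 bp, 37.4% of the gene, a share above that of 90.3% of protein-coding genes. The highest had a fold of 5.38 and matched the main DRIP peak, and those at 667 and 1258 bp matched the first and the second. The c peaks at 2112 and 4582 bp, with folds of 2.81 and 2.84, overlapped no DRIP peak. The only w peak of NDX, with a fold of 4.31, had its summit at 5265 bp, near the higher-coordinate end. The DRIP peak at that place was found in replicate 1 alone, with the same summit. The neighbours BSL1, 554 bp below, and AT4G03100, 2602 bp above, had mean DRIP folds of 3.38 ± 0.15 and 4.28 ± 0.014 (SD, n = 2).

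**Figure D2:**
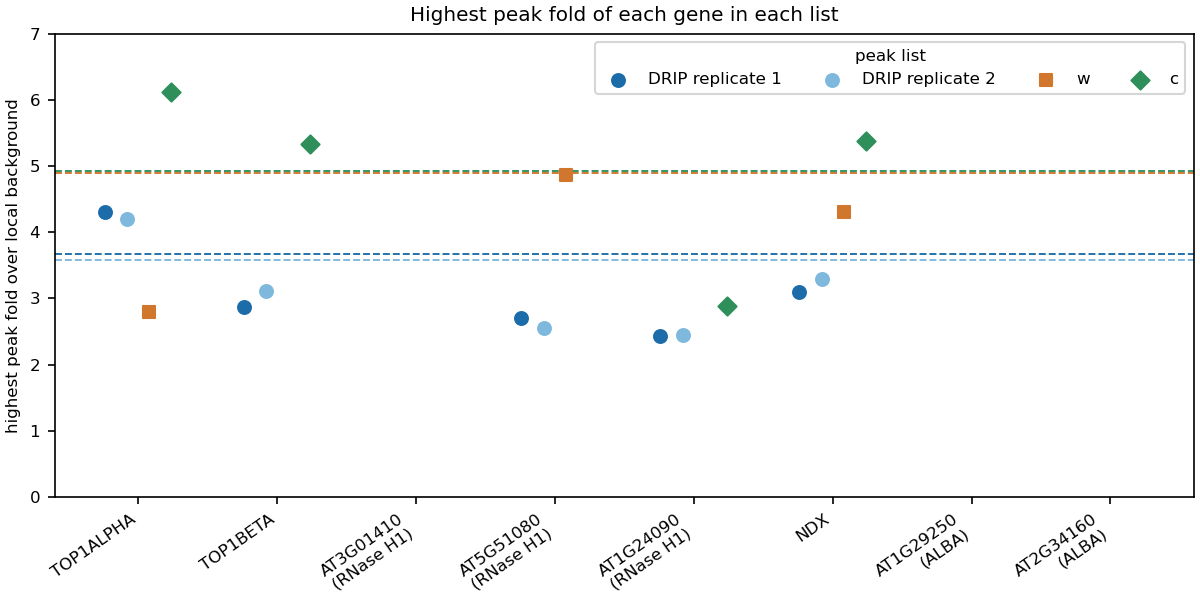
Highest peak fold over local background of each gene in the 4 lists (both DRIP replicates, w and c), with 1 point per list and none where the gene has no peak. Dashed lines give the median of all protein-coding genes with a peak in that list, 3.67 and 3.58 for the DRIP replicates and 4.89 and 4.93 for w and c. TOP1ALPHA is the only one of the genes above the median in the DRIP replicates.

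The ALBA genes AT1G29250 and AT2G34160 were free of peaks over their whole spans, of 1534 bp and 1381 bp, with a peak just past the higher-coordinate end of each. This did not extend to 4 further loci that were listed as ALBA genes. The gene table does not name these as ALBA genes, and it lacks the working names of AT1G29250 and AT2G34160 as well. So the table does not separate the 4 further loci from the ALBA genes of the group. All 4 further loci, AT3G04620, AT1G76010, AT1G20220 and AT3G07030, had DRIP peaks in both replicates, against 60.6% of all protein-coding genes. These peaks covered 16.9% to 68.5% of their spans on average. The 4 loci span 1620, 3713, 2894 and 2997 bp in that order, each more than either ALBA gene of the group. A difference between the 4 loci and those ALBA genes was not tested. The 4 loci are given with their values known. Beside AT1G29250 the nearest DRIP peak was 86 bp away in replicate 1 and 115 bp away in replicate 2, with folds of 2.87 and 2.74. It lay inside PEX7, a gene for a peroxisomal import receptor that lies 15 bp past the ALBA gene, at chromosome 1, 10224886 to 10225072. A w peak with a fold of 5.16 matched it, and PEX7 had no c peak. The gene on the other side, AT1G29240, lies 3323 bp away and had a mean DRIP fold of 2.60 ± 0.20 (SD, n = 2).

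Beside AT2G34160 the gap was shorter still. The nearest DRIP peak was 40 bp away in replicate 1 and 7 bp away in replicate 2, with folds of 4.23 and 2.93, at chromosome 2, 14427529 to 14427788, in replicate 1. It lay in AT2G34170, which lies 20 bp past the ALBA gene and carried 3 DRIP peaks in each replicate. The peak was matched by both a w peak, with a fold of 3.09, and a c peak, with a fold of 3.63. AT2G34150 on the other side, 2629 bp away, had a DRIP peak in replicate 1 only, with a fold of 2.87.

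All 3 genes without a peak had a DRIP peak in both replicates once 1 kb was added on either side, against 39.5% of all genes that lacked DRIP peaks in both. The median distance to the nearest DRIP peak over such genes was 1087 bp in replicate 1 and 1289 bp in replicate 2. Only 1.90% and 0.18% of them had a nearer peak than AT2G34160 in the respective replicate, and 4.13% and 5.11% had a nearer peak than AT1G29250. For AT3G01410 these shares were larger, at 23.8% and 21.9%. Genes with lengths from that of one ALBA gene to that of the other carried a DRIP peak in both replicates in 52.8% of cases. Genes in the length range of TOP1ALPHA, TOP1BETA and NDX did so in 76.7% of cases.

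Over the 8 genes, c peaks outnumbered w peaks. Within the gene spans there were 13 c peaks in 4 genes and 3 w peaks in 3 genes. Over all protein-coding genes the means were 0.870 c peaks and 0.876 w peaks a gene. Most of the 13 lay in a few genes, 5 in NDX and 3 each in the adjacent TOP1ALPHA and TOP1BETA. Of the 5 genes with DRIP peaks in both replicates, 2 had peaks on both strands (TOP1ALPHA and NDX), 1 had w peaks alone (AT5G51080) and 2 had c peaks alone (TOP1BETA and AT1G24090). Over all genes with a DRIP peak in both replicates the shares were 46.4%, 26.8% and 26.8%. Of the 11 replicate 1 peaks, 7 overlapped a c peak only, 4 a w peak only and none both, while 9.78% of all replicate 1 peaks overlapped both. With so low a general share, none of 11 does not set these genes apart. The strand of transcription was not used, and whether the balance of w and c follows the strands on which these genes lie was not tested.

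Some c peaks stood where neither DRIP list had a peak. Of the 13 c peaks, 6 overlapped no DRIP peak, against 25.4% of all c peaks. Their folds ran from 2.37 to 3.71, and they lay in TOP1ALPHA, TOP1BETA and NDX. All 3 w peaks overlapped a DRIP peak, while w peaks without one made up 25.7% of all w peaks. These counts are small, and a difference between the strands was not tested.

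**Figure D3:**
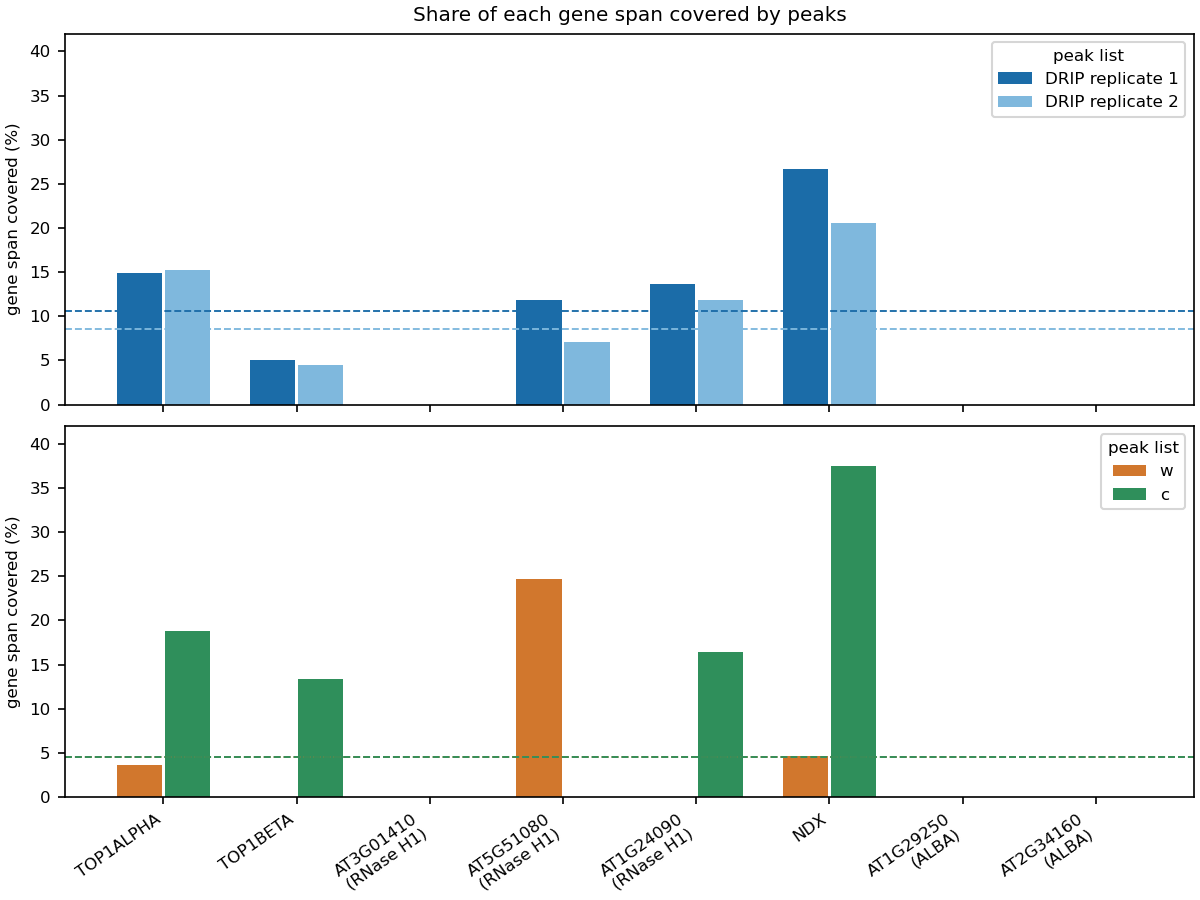
Share of each gene span, in %, covered by peaks of the DRIP replicates (upper panel) and of the w and c lists (lower panel), with 1 bar per list. Dashed lines give the median over all protein-coding genes, 10.6% and 8.59% for the DRIP replicates and 4.57% and 4.58% for w and c. NDX has the highest DRIP and c shares, at 26.6%, 20.5% and 37.4%, and AT5G51080 the highest w share, at 24.7%.

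By the share of the gene span covered, the order of the genes was not that by highest fold. NDX was covered most, by 23.6% ± 4.32 of its span (SD, n = 2), followed by TOP1ALPHA with 15.1% ± 0.24, AT1G24090 with 12.8% ± 1.29, AT5G51080 with 9.45% ± 3.36 and TOP1BETA with 4.75% ± 0.45. In AT5G51080 the replicates were far apart, at 11.8% and 7.07%, since 1 of its peaks was found in replicate 1 only. The higher of these nearly met the lower share of AT1G24090, 11.9%. The median over the 8 genes, with those without a peak at 0, was 7.10%, and over all protein-coding genes 9.67%. By highest fold the order was TOP1ALPHA, NDX, TOP1BETA, AT5G51080 (2.64 ± 0.11) and AT1G24090. NDX and TOP1BETA overlapped between replicates in that order, with values from 3.09 to 3.30 and from 2.87 to 3.11. In DRIP peaks per kb of gene, AT1G24090 had the highest mean, with 0.727 in each replicate. AT5G51080 followed with 0.655 ± 0.31 and NDX with 0.636 ± 0.13 (SD, n = 2). The replicate 1 value of AT5G51080, 0.873, was above that of AT1G24090.

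The replicates placed most peaks alike. Of 11 replicate 1 peaks in the 8 genes, 2 had no counterpart in replicate 2, against 20.5% of all replicate 1 peaks. Of 9 replicate 2 peaks none lacked a counterpart, against 4.93% of all. Over the 9 pairs the shared bases made up 62.6% to 95.7% of the bases in either peak, with a median of 78.6%, and the median over all 38923 peak pairs of the replicates was 78.8%. Summits were a median of 36 bp apart, against 23 bp over all pairs. Both replicate 1 peaks with no counterpart, in AT5G51080 and NDX, were matched by a w peak, and that list is recorded under the same sample.

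Small differences between folds carry little weight. The deposited folds recur in equal steps, of 0.080 in replicate 1, 0.091 in replicate 2 and 0.15 in w and c, and 44.3% of replicate 1 peaks sit on a value shared by at least 200 peaks. Both replicate 1 peaks of AT5G51080, for example, have a fold and q-value that 994 peaks of that list share. The SD of TOP1ALPHA is below 1 such step. That of AT1G24090 is also smaller than a step, but its highest folds are not such common values. Their fold and q-value are those of only 6 peaks in replicate 1 and 3 in replicate 2, and they belong to different peaks.

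Genes of other factors that act on R-loops or on the DNA around them were set beside the 8. Of 50 such genes, 34 are named as such in the gene table, and the other 16 were left out, of which 11 had a DRIP peak in both replicates. Those left out include the 3 loci listed for RNase H2, which had DRIP peaks in neither replicate, against 31.2% of all protein-coding genes. Of these, AT2G25100 had c peaks and AT4G20325 a w peak. Both replicates had a DRIP peak in 23 of the 34, or 67.6%, and in 60.6% of all protein-coding genes. Their median length of 3684.5 bp exceeds that of all protein-coding genes, 2078 bp, and the shares by length given above were higher for longer genes. No share was taken for the length range of the 34 genes, so a part of length in their count was not tested. Of the 34 genes, 25 had a w peak and 20 a c peak, against 54.9% and 54.8% of all protein-coding genes.

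Among topoisomerase genes and the partner gene RMI1, DRIP peaks in both replicates were found in 8 of 9. These genes are long, with a median of 6345 bp, and the share was 60.6% over all protein-coding genes and 76.7% over those in the length range of TOP1ALPHA, TOP1BETA and NDX. The highest were GYRB2 (5.41 ± 0.88, SD, n = 2) and GYRA (5.06 ± 0.61), which encode subunits of DNA gyrase, the organellar enzyme that introduces negative supercoils, and RHL2 (4.82 ± 0.48), which encodes a subunit of topoisomerase VI and is needed for endoreduplication. GYRB2 had 3 w peaks with a highest fold of 8.40 and no c peak, and GYRA a w fold of 8.25 and a c fold of 3.41. Each of these means exceeded that of TOP1ALPHA. GYRB3 had no peak in any list. RMI1, picked for mention with its values known, had the widest gap between replicates, with folds of 5.53 and 2.49.

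The THO complex packages nascent RNA. Among its genes and those of RNA export factors, 7 of 9 had DRIP peaks in both replicates, with THO2 highest of the 9 (5.57 ± 0.66). The 3 loci left out of this list for want of a name also had DRIP peaks in both replicates. One of these, AT5G59950, named with its values known, was higher than THO2 and than all 34 genes kept, at 6.87 ± 0.24. Of 9 genes for replication protein A, which coats single-stranded DNA, 5 had DRIP peaks in both replicates. AT4G19130, named RPA1E in the table, was highest of all 34, at 5.95 ± 0.041, with 41.7% ± 1.84 of its span covered. RPA70B, AT3G52630 and AT4G18590 had no peak in any list, the last of them picked with its values known. Of 7 helicase genes, 3 had DRIP peaks in both replicates. Each of these counts is to be read against the general share of 60.6%, and with 7 or 9 genes a list none was tested against it. Of the RecQ helicase genes, RECQ4A was highest of these, at 4.66 ± 0.27, and RECQ4B had no peak in any list.

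**Figure D4:**
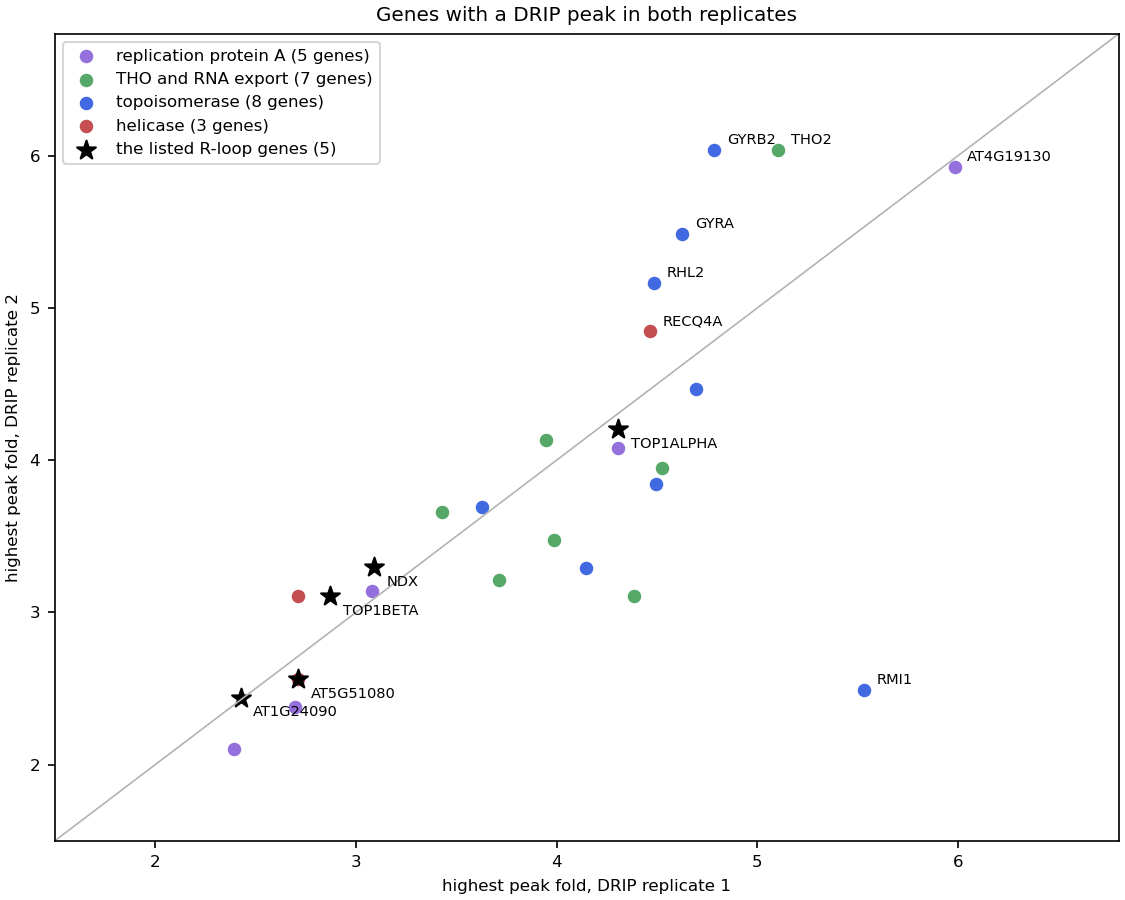
Highest peak fold in DRIP replicate 1 (horizontal) against DRIP replicate 2 (vertical), with 1 point per gene, for the related genes and the listed R-loop genes that have a DRIP peak in both replicates. The grey line marks equal folds. TOP1ALPHA lies at 4.31 and 4.21, the other 4 stars lie below 3.3 on both axes, and the star of AT5G51080 hides the helicase gene UAP56a at the same values.

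The protein-coding genes most like TOP1ALPHA by their highest folds in the 4 lists (Euclidean distance, 0 where there is no peak) were AT4G35025, AT1G33230 and AT1G05120, at distances of 0.15, 0.19 and 0.22. AT4G35025 had the same folds as TOP1ALPHA in both DRIP replicates, with 2.95 on w and 6.07 on c. With 3 of the 4 lists from one sample and folds that recur in steps, so close a match is a description of these values only.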

How the data were processed

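Peak lists of 2 DRIP samples were used. CASAVA, BWA 0.7.12 and the peak caller MACS2, with the genome build TAIR10, are named per the submitters' processing notes. Which control library was used is not given in the sources used here, nor are settings and pooling. The deposited fold values are linear ratios at the peak summit over the local background, as the authors' MACS2 run gave them. The same run gave the deposited -log10 q-value, used for an alternative threshold, the -log10 p-value, which was not used, and the summit offset in bp.

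Gene spans came from RefSeq's TAIR10.1 table, a later release of the same assembly, and were joined to peaks by position with an overlap of at least 1 bp. In a check of the join, peaks were moved by up to 1000 bp, 50 bp at a time, and overlap with protein-coding genes was greatest at 0 bp in all 10 combinations of chromosome and replicate. Distances count the bases between. A gene's fold is its highest peak's, and its covered share is peak bases over span. Percentiles are the share of protein-coding genes with a lower value. The members, lists and rules were chosen with earlier results of these data known. Named are all 8 genes, their neighbours, 6 related genes ranked by the lower of their replicate folds and 4 with no peak, and the 3 genes most like TOP1ALPHA. The join was tested on simulated data. Python 3.11.15, numpy 2.4.6 and pandas 2.3.3 were used. No genome or promoter sequence was used.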

Additional observations from a re-analysis of the deposited data

How the results depend on the processing

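The count of 5 genes with a DRIP peak in both replicates was the same with only peaks of -log10 q of 2 or more, with the summit or at least 50% of the peak required inside the gene, and from either replicate alone (5 to 5). Over these settings the share of all protein-coding genes ran from 56.4%, with the summit inside, to 67.3%, from replicate 1 alone. It was 2 with only peaks in the upper 50% by fold (42.2% of all protein-coding genes) and 8 with 1 kb added on either side (77.2%). The count of genes with a w peak rose from 3 to 7 with 1 kb added (72.0%). It fell to 2 with only peaks in the upper 50% by fold (39% of all protein-coding genes). The count of genes with a c peak ranged from 3 with only peaks in the upper 50% by fold (38.8%) to 5 with 1 kb added (71.4%). For the 34 related genes the count of 23 became 24 without replicate 1 (62.0% of all protein-coding genes) and 25 without replicate 2 (67.3%). Over the other settings it ranged from 18 with only peaks in the upper 50% by fold (42.2%) to 28 with 1 kb added (77.2%). Of 12 highest folds, 7 were left with only peaks in the upper 50% by fold, a filter that cannot change a highest fold it keeps. The other 5 could no longer be given. Among these was the DRIP mean of TOP1BETA, which kept its peak in replicate 2 and lost that in replicate 1. Covered shares moved in 20 of 24 cases with 1 kb added and in 10 of 24 with only peaks in the upper 50% by fold. For w and c shares, with 1 list each, there is no replicate spread to set this against, and shares of 0 could not fall further. No paired analysis was possible because only the DRIP group has peak lists here. Depth is unknown, so whether the genes without a peak lack R-loops or lie below detection was not tested.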
